A study of Homo sapiens with 8 samples.

Results

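The aminoacyl-tRNA synthetases are the enzymes that load each tRNA with its amino acid. Here 35 of their nuclear genes were taken by gene name, with no threshold on their values, from the 18132 genes that the array's annotation named. KBM7 is a near-haploid chronic myeloid leukaemia line in which 1 gene-trap insertion can disable a gene, and its RNA was measured on 8 one-colour Affymetrix arrays. The arrays held JAK2 mutant cells with IFN-gamma (100 ng/ml, 6 h) and unstimulated, TNFRSF1A mutant cells with TNF-alpha (10 ng/ml, 6 h) and unstimulated, wild-type (WT) cells with IFN-gamma or with TNF-alpha at the same doses and time, and 2 arrays of unstimulated WT cells. JAK2 is a kinase that relays IFN-gamma signals, and TNFRSF1A is the gene of the main receptor for TNF-alpha. Unstimulated WT replicate 1 was the control in the IFN-gamma experiment and unstimulated WT replicate 2 the control in the TNF-alpha experiment.

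Each condition other than unstimulated WT had 1 array, so no difference here has a test of its own, and the labels do not say whether the WT replicates were separate cultures or how many clones stand for each mutant. Values are log2 of the normalised intensity. A difference is that of 2 arrays on this scale, so that 1 unit is 2-fold, and "raised" or "lowered" means past 2-fold. The compared genes were the 11529 whose highest log2 intensity reached 6, and all 35 synthetases were among them. A gene was read from its brightest probe set, and the 35 genes had 88 probe sets in all. The standard deviation of the difference over the compared genes was 0.15 between the arrays of the JAK2 mutant with and without IFN-gamma and 0.12 between those of the TNFRSF1A mutant with and without TNF-alpha. It was 0.38 between the WT replicates, which also came from different experiments.

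In the cytosol each synthetase serves the ribosomes that translate nuclear messages. A second, mostly separate set of nuclear genes encodes the synthetases of the mitochondrion, where a few inner-membrane proteins are made. GARS1 and KARS1 supply both compartments and were counted here as cytosolic, which gave 19 cytosolic and 16 mitochondrial genes. Several cytosolic enzymes sit together in the multi-synthetase complex. Transcription of many cytosolic synthetase genes is known to answer to ATF4, the factor of the amino acid response, and WARS1, the tryptophanyl-tRNA synthetase, is also a classical interferon-induced gene.

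The targeted genes followed the labels. JAK2 had an intensity of 40.1 with IFN-gamma and 33.8 without it in the JAK2 mutant, against 70.8 to 113 on the 4 WT arrays. TNFRSF1A had 93.9 with TNF-alpha and 94.5 without it in its mutant, against 601 to 842 on the WT arrays. The array medians lay between 63.9 and 66.9. The ratio of the 3' to the 5' actin control, a measure of RNA integrity and amplification, was 6.47 and 5.74 in the JAK2 mutant with and without IFN-gamma and 5.53 and 4.51 in the TNFRSF1A mutant with and without TNF-alpha, against 3.27 to 4.81 on the WT arrays. Of the myeloid and progenitor markers, MYB lay between 11.20 and 11.85 on the log2 scale, KIT, CEBPA and MPO were above the background probe sets on at least 7 arrays, and SPI1 was in the background range on all 8. Summed intensity of these markers was 4494 and 4530 in the JAK2 mutant and 3795 and 4069 in the TNFRSF1A mutant, against 2891 to 3736 in WT. Of the T cell markers, CD3D lay between 8.71 and 10.03, whereas CD3E and CD2 were in the background range on every array. The summed T cell markers were 534 and 554 in the JAK2 mutant and 497 and 503 in the TNFRSF1A mutant, against 715 to 1122 in WT. The B cell marker CD79A stayed between 5.82 and 6.49, and MS4A1 and the epithelial markers EPCAM, KRT19 and CDH1 were in the background range throughout. The RNA is of whole cultures, so fewer cells of a type and less RNA per cell cannot be told apart.

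IFN-gamma raised WARS1 in WT cells and no other synthetase gene. WARS1 had a log2 intensity of 11.68 in WT cells with IFN-gamma, against 9.52 in unstimulated WT replicate 1. Its difference was 2.16, or 4.47-fold, which placed it at rank 16 among the compared genes. IFN-gamma raised 70 of these genes, or 0.607%. On the 6 remaining arrays WARS1 lay between 9.18 and 9.88, so that the WT array with IFN-gamma stood apart from all others. Further WARS1 probe sets gave differences of 2.04 and 2.07, and the last one was in the background range on every array.

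In the JAK2 mutant the same stimulus left WARS1 nearly where it was. WARS1 had 9.33 with IFN-gamma, against 9.18 without it, a difference of 0.15. The standard deviation between these arrays was 0.15 over all compared genes and 0.08 over the 35 synthetases, of which WARS1 was the highest. Its 3 brighter probe sets gave 0.15 to 0.38, the highest from one that was in the background range without IFN-gamma. The response in WT cells was larger by 2.01 on the log2 scale, and on the linear scale the increase in the JAK2 mutant was 2.44% of that in WT. None of the compared genes was raised by IFN-gamma in the JAK2 mutant (0%).

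**Figure D1:**
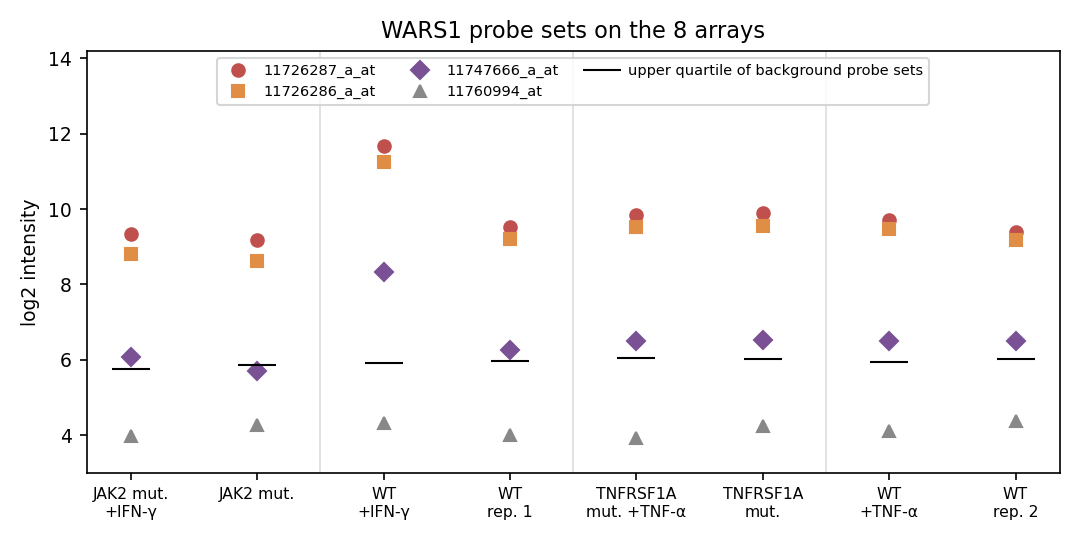
Log2 intensity of the 4 WARS1 probe sets (symbols) on each of the 8 arrays, grouped as mutant then WT for each experiment; the short lines mark the upper quartile of the background probe sets. The 3 brighter probe sets peak together in WT cells with IFN-gamma, where the brightest reaches 11.68, and the fourth stays below the lines.

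WARS1 has 2 promoter entries in RefSeq (GRCh38.p14), both on the minus strand of chromosome 14, and their sequences are shown because they differ in interferon elements. Each is the 250 bases before a transcription start, 5′ to 3′ in the direction of transcription. The downstream entry is chr14:100375348-100375597 (start at 100375347), and the upstream entry is chr14:100376328-100376577 (start at 100376327). Capitals mark a gamma-activated site (GAS, TTCNNNGAA) and an interferon-stimulated response element (ISRE, GAAA, then any 2 bases, then GAAA), both searched on both strands.
WARS1 downstream start: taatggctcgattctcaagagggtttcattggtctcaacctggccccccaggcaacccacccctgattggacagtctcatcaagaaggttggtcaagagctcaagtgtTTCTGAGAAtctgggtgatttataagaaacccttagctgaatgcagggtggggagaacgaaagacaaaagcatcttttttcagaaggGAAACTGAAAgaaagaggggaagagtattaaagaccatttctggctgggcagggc
WARS1 upstream start: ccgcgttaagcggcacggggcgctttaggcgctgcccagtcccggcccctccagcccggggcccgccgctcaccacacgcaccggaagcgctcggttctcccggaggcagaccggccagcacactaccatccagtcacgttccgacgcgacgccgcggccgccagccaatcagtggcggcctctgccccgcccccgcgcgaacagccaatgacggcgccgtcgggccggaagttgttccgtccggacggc

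The downstream start has a GAS whose first base is at -142 and an ISRE whose first base is at -55, and the matches do not overlap. The upstream start has neither. RefSeq entries of 250 bases before to 50 after a start were held for 30 of the 35 genes, 39 entries in all, and the downstream WARS1 entry was the only one of them with both elements. Of all 35116 promoter entries, 7.66% held a GAS, 3.57% an ISRE and 0.439% both. A GAS was also found for CARS1, TARS1, PARS2 and WARS2, and an ISRE for EARS2. With IFN-gamma in WT cells these genes differed by 0.21 (CARS1), 0.08 (TARS1), -0.28 (PARS2), -0.07 (WARS2) and 0.12 (EARS2), so none of them was raised.

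The other 34 synthetases stayed close together under IFN-gamma in WT cells. Their differences ran from -0.28 to 0.27 with a median of -0.03, and the median of all compared genes was -0.02. Of the 34, 14 were above 0 and 20 below it, while 42.1% of all compared genes were above 0 and 57.8% below. RARS1, the arginyl-tRNA synthetase, came next after WARS1 with 10.76 in stimulated WT cells against 10.49 in WT replicate 1. LARS2, the mitochondrial leucyl enzyme, followed at 0.26 and CARS1, the cysteinyl enzyme, at 0.21. At the other end were PARS2 (mitochondrial prolyl) at -0.28, SARS2 (mitochondrial seryl) at -0.25, MARS2 (mitochondrial methionyl) at -0.24 and FARSA (a phenylalanyl subunit) at -0.23. WARS2, which charges the mitochondrial tRNA for tryptophan, differed by -0.07. RARS1, LARS2, PARS2, SARS2, MARS2 and FARSA were just past the standard deviation over the compared genes, 0.22, and the remaining synthetases other than WARS1 were within it.

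In the JAK2 mutant, IFN-gamma moved no synthetase past 2-fold either. The range was -0.26 for SARS2 to 0.15 for WARS1, and the median was -0.01. The median of the cytosolic genes was 0.00 and that of the mitochondrial genes -0.02.

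TNF-alpha raised no synthetase in WT cells. It raised 0.312% of the compared genes and lowered 0.00867%. WARS1 had the highest difference of the 35, with 9.70 in WT cells with TNF-alpha against 9.38 in WT replicate 2. That difference of 0.32 was 0.30 and -0.01 in the other WARS1 probe sets above background. MARS1, the cytosolic methionyl enzyme, followed at 0.26, but its 4 probe sets above background ranged from -0.29 to 0.60. PARS2 differed by 0.19, and TARS2 (mitochondrial threonyl) and VARS1 (cytosolic valyl) each by -0.18. The cytosolic median was 0.07 and the mitochondrial median -0.06.

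In the TNFRSF1A mutant, TNF-alpha again moved none of the 35 past 2-fold, and it raised or lowered 0% of the compared genes. WARS1 had 9.84 with TNF-alpha, against 9.88 without it. SARS2 was the highest at 0.36 and EARS2 (mitochondrial glutamyl) the lowest at -0.23. Of the 35 genes 26 were below 0, as were 58.7% of the compared genes.

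**Figure D2:**
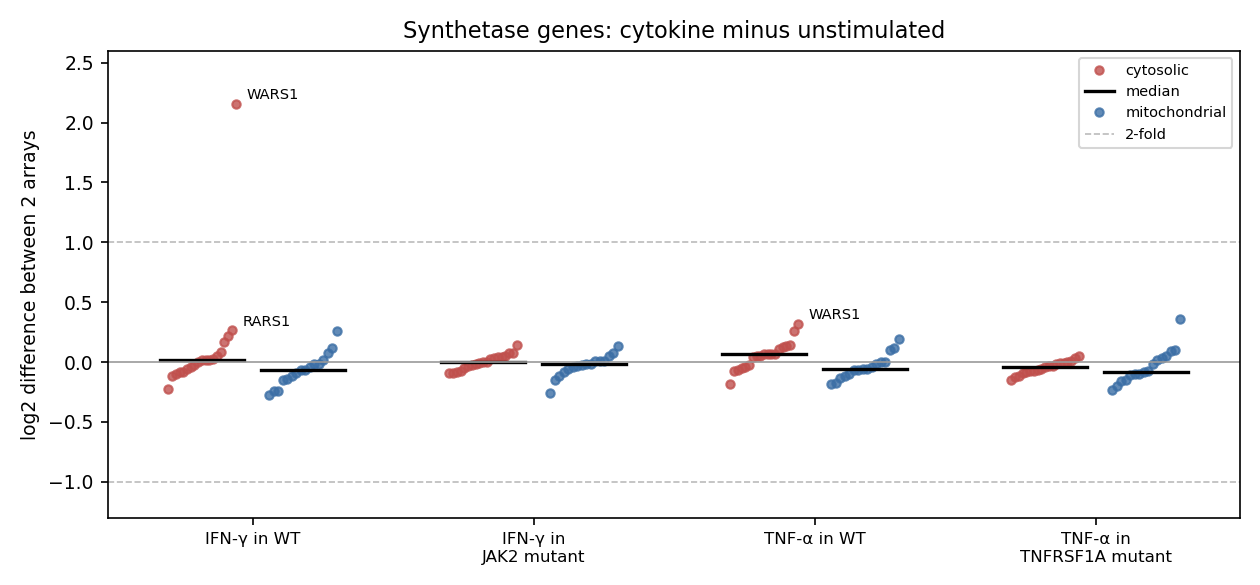
Log2 difference between the stimulated and the unstimulated array for each synthetase gene, in the 4 cytokine comparisons; points are genes sorted by value, black bars are class medians and dashed lines mark 2-fold. WARS1 with IFN-gamma in WT, at 2.16, is the single point beyond 2-fold.

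The JAK2 mutant differed from WT most among the mitochondrial synthetases. Their median difference from WT was 0.23 without IFN-gamma and 0.23 with it, while the cytosolic median was 0.03 and 0.02. The cytosolic median minus the mitochondrial one was -0.20 without IFN-gamma and -0.21 with it. The median of all compared genes was 0.03 in both comparisons. Without IFN-gamma 12 of 16 mitochondrial and 13 of 19 cytosolic genes were above 0, as were 55% of the compared genes. With IFN-gamma it was 12 of 16 and 10 of 19, against 54.8%. Across both pairs, 10 of the 16 mitochondrial and 9 of the 19 cytosolic genes were above WT each time, against 43.7% of the compared genes, and 2 and 5 were below it, against 33.8%. The pairs share a mutant line and an experiment. Set against WT replicate 2 instead, the gap without IFN-gamma was -0.32, and CARS2 and MARS2 were raised.

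Set against all WT arrays, 10 of the 16 mitochondrial genes were higher on both JAK2 mutant arrays than on any of the 4 WT arrays, as were 7 of the 19 cytosolic genes. Of all compared genes, 29.1% were. These 10 are the same genes that were above WT in both pairs, so the count is not a separate check. Of the 16 mitochondrial genes, 14 were lower in WT replicate 2 than in replicate 1, as were 55.7% of the compared genes. The 10 were AARS2, CARS2, FARS2, HARS2, IARS2, MARS2, NARS2, RARS2, TARS2 and VARS2, the mitochondrial enzymes for alanine, cysteine, phenylalanine, histidine, isoleucine, methionine, asparagine, arginine, threonine and valine. WARS2 was the 1 mitochondrial gene below all WT arrays. The cytosolic genes above were FARSA, FARSB, HARS1, KARS1, LARS1, MARS1 and VARS1, and those below were AARS1, GARS1, QARS1 and WARS1. Of the compared genes 20.1% were below.

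MARS2 showed the highest difference of the 35. It had 9.17 with IFN-gamma and 9.10 without it in the JAK2 mutant, against 8.32 in WT with IFN-gamma, 8.56 in WT replicate 1, 8.14 in WT with TNF-alpha and 8.02 in WT replicate 2. Its difference was 0.85 with IFN-gamma and 0.53 without it. The arrays of the mutant did not overlap those of WT, but the WT replicates themselves differed by -0.55.

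NARS2 had 9.51 and 9.66 in the JAK2 mutant with and without IFN-gamma, against 9.04 and 9.19 in WT with and without it and 8.94 and 9.01 in the TNF-alpha experiment's WT arrays. The difference was 0.47 in each pair, larger than the -0.18 between the WT replicates. AARS2 had 7.81 and 7.92 in the mutant, against 7.32 and 7.47 in the paired WT arrays, a difference of 0.49 with IFN-gamma and 0.45 without it, and its WT replicates differed by -0.47. TARS2 had 8.32 and 8.31 in the mutant, against 7.87 and 7.91 in those WT arrays. Its WT replicates were level at 7.91 each, and its differences were 0.45 and 0.40. The mitochondrial genes below WT without IFN-gamma were PARS2 at -0.16, SARS2 at -0.08, WARS2 at -0.07 and YARS2 at -0.01.

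HARS1, the cytosolic histidyl enzyme, was the highest of the cytosolic genes. It had 10.26 with IFN-gamma and 10.19 without it in the JAK2 mutant, against 9.78 and 9.76 in WT, a difference of 0.49 and 0.43. HARS2, its mitochondrial counterpart, differed by 0.32 and 0.25. The pair is head to head on chromosome 5, and their RefSeq promoter entries overlap. The HARS1 entry is chr5:140691321-140691620 on the minus strand and the HARS2 entry is chr5:140691205-140691504 on the plus strand.

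AARS1, the cytosolic alanyl enzyme, was the lowest gene in the JAK2 mutant apart from WARS1. It had 10.15 with IFN-gamma and 10.24 without it, against 10.58 and 10.56 in WT. The differences of -0.43 and -0.32 exceeded in size the 0.26 between the WT replicates. QARS1, the glutaminyl enzyme, differed by -0.22 and -0.23, and GARS1, the glycyl enzyme, by -0.19 and -0.14. WARS1 differed by -0.34 without IFN-gamma. With it, WARS1 was lowered, at 9.33 in the mutant against 11.68 in WT and a difference of -2.35, and no other synthetase passed 2-fold. Of the compared genes 2.67% were lowered and 0.347% raised with IFN-gamma. Without it the shares were 1.91% and 0.226%, with no synthetase among them.

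The actin ratio was higher on both JAK2 mutant arrays than on any WT array. The summed myeloid markers were higher and the summed T cell markers lower, as given above. Of the myeloid markers above background, MYB, MPO and CEBPA were above the paired WT arrays. KIT was below them, at -0.13 with IFN-gamma and -0.70 without it. CD3D was the only T cell marker above background. The part of the actin ratio and of the markers in these differences was not tested.

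**Figure D3:**
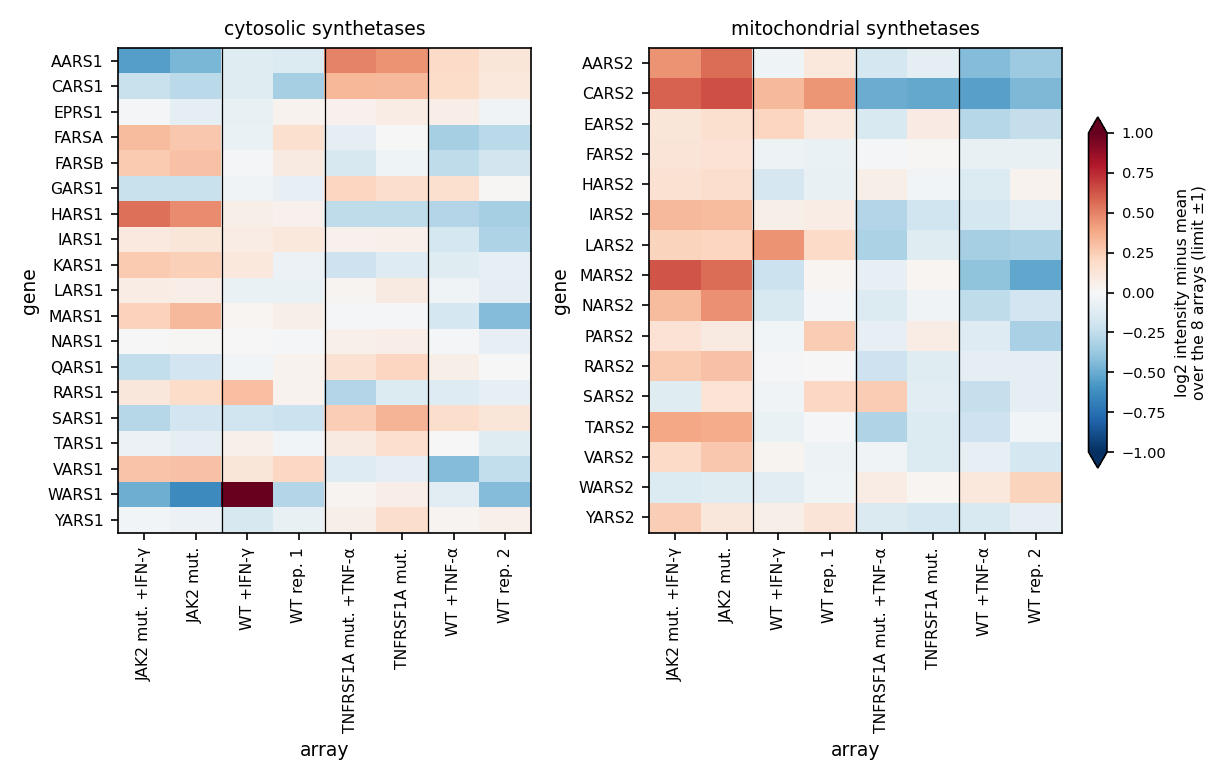
Log2 intensity of each synthetase gene minus its own mean over the 8 arrays, cytosolic genes at left and mitochondrial genes at right; red is above the mean and blue below it, and colour ends at 1 unit either way. The JAK2 mutant columns are red for most mitochondrial genes, and WARS1 is darkest in WT cells with IFN-gamma.

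Other genes of mitochondrial translation lay higher in the JAK2 mutant as well. The 74 mitochondrial ribosomal proteins had a median difference of 0.29 with IFN-gamma and 0.28 without it, and 66 and 65 of them were above 0, against 54.8% and 55% of the compared genes. In both pairs 64 of the 74 were above WT, against 43.7% of the compared genes. In WT replicate 2, 56 of the 74 were lower than in replicate 1, against 55.7% of the compared genes. On both mutant arrays 60 of the 74 were above all 4 WT arrays, where 29.1% of the compared genes were. None passed 2-fold. MRPL2 was the highest at 0.83 and 0.60, and MRPS27 the lowest at -0.14 and -0.26. The 8 mitochondrial translation factors on the array had medians of 0.24 and 0.26, with TUFM, the mitochondrial elongation factor Tu, at 0.38 and 0.31. Between the WT replicates their median was -0.34, and TUFM differed by -0.55. The 6 cytosolic elongation factors had medians of -0.06 and -0.05.

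The partners of tRNA charging followed the same side. Of 12 listed, 9 were compared, and all 9 were above 0 in both pairs, against 43.7% of the compared genes. On both mutant arrays only 4 of the 9 were above all 4 WT arrays, where 29.1% of the compared genes were. For WT replicate 2 minus replicate 1 their median was 0.17, with 6 of 9 above 0, against 44.2% of the compared genes. GATC, a subunit of the mitochondrial amidotransferase that makes glutaminyl-tRNA, was the highest. It had 7.38 and 7.47 in the JAK2 mutant with and without IFN-gamma, against 6.83 and 6.78 in WT. MTFMT, which formylates the mitochondrial initiator methionyl-tRNA, differed by 0.43 and 0.42, but its WT replicates differed by -0.60. XPOT, the tRNA exporter, differed by 0.09 and 0.04, and by 0.31 between the WT replicates.

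The amino acid response genes lay lower in the JAK2 mutant. Of 20 genes, 5 were lowered with IFN-gamma and 3 without it, against 2.67% and 1.91% of the compared genes, and none was raised. Their median was -0.48 with IFN-gamma and -0.50 without it. On both mutant arrays 18 of the 20 were below all 4 WT arrays, where 20.1% of the compared genes were. DDIT3, which encodes the stress factor CHOP, had 6.54 in the mutant with IFN-gamma and without it, against 8.54 and 8.42 in WT. TRIB3 differed by -1.35 and -1.32, and the cystine transporter gene SLC7A11 by -1.48 and -1.07. SESN2 was lowered with IFN-gamma, at -1.15, and had -0.78 without it. STC2 was lowered with IFN-gamma, at -1.11, and had -0.84 without it. ATF4 itself, named after its values were seen, differed by -0.31 and -0.25. The same genes also differed between the WT replicates, with a median of 0.36 for replicate 2 minus replicate 1. There 15 of 20 were above 0, against 44.2% of the compared genes, whose median was -0.04.

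The TNFRSF1A mutant differed from WT on the cytosolic side. Without TNF-alpha the cytosolic median was 0.18 and the mitochondrial median 0.01, a gap of 0.17, and the median of all compared genes was 0.04. Of the 19 cytosolic genes 17 were above 0, and of the 16 mitochondrial genes 8 were, against 57.8% of the compared genes. With TNF-alpha the gap was 0.03, the medians were 0.09 and 0.05, and 16 of 19 and 12 of 16 genes were above 0, against 52.6% of the compared genes. Across both pairs, 16 of the 19 cytosolic and 8 of the 16 mitochondrial genes were above WT each time, against 41.2% of the compared genes, and 2 and 4 were below it, against 30.8%. No synthetase passed 2-fold in either comparison. Of the compared genes 0.373% were raised and 0.607% lowered without TNF-alpha, and 0.304% and 0.919% with it.

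On both TNFRSF1A mutant arrays 9 of the 19 cytosolic genes were above all 4 WT arrays, as were 15.2% of the compared genes. They were AARS1, CARS1, GARS1, LARS1, NARS1, QARS1, SARS1, TARS1 and YARS1. KARS1 and RARS1 were below all WT arrays, where 12.4% of the compared genes were. Of the 16 mitochondrial genes, FARS2 was above and IARS2 and RARS2 were below.

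AARS1 had 11.20 with TNF-alpha and 11.14 without it in the TNFRSF1A mutant, against 10.89 and 10.82 in WT with and without TNF-alpha and 10.58 and 10.56 in the IFN-gamma experiment's WT arrays. The mutant arrays were above every WT array, by 0.30 and 0.32 in the pairs, while the WT replicates differed by 0.26. TARS1, the cytosolic threonyl enzyme, had 11.97 and 12.05 in the mutant, against 11.89 and 11.76 in WT. SARS1, the seryl enzyme, had 10.82 and 10.91 in the mutant, against 10.75 and 10.69 in WT. For these 2 genes the pair without TNF-alpha showed the larger gap, 0.29 for TARS1 and 0.22 for SARS1.

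WARS1 differed by 0.50 without TNF-alpha and 0.14 with it, and its probe sets ranged from 0.04 to 0.50 in the pair without it. MARS2, at 0.54 and 0.32, had the highest difference of the 35 without TNF-alpha. It had 8.46 with TNF-alpha and 8.56 without it in the mutant, against 8.14 and 8.02 in WT. MARS1 followed at 0.42 and PARS2 at 0.40 in the pair without TNF-alpha. SARS2 was the highest with TNF-alpha at 0.48 but had -0.01 without it. At the low end were WARS2 at -0.20 and TARS2 at -0.11 without TNF-alpha, and RARS1 at -0.16 with it.

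Some of these genes had probe sets that disagreed. Without TNF-alpha, QARS1 ranged from -0.43 to 0.21 and NARS1 from -0.38 to 0.15 over their probe sets above background. The actin ratio of each TNFRSF1A mutant array was above that of its paired WT array. The summed T cell markers, of which CD3D alone was above background, were lower than on any WT array. The summed myeloid markers were higher. Against paired WT, CEBPA differed most, by 1.11 with TNF-alpha and 1.01 without it, MYB and KIT were also above, and MPO was below, at -0.09 and -0.32. The part of the actin ratio and of the markers in these differences was not tested.

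**Figure D4:**
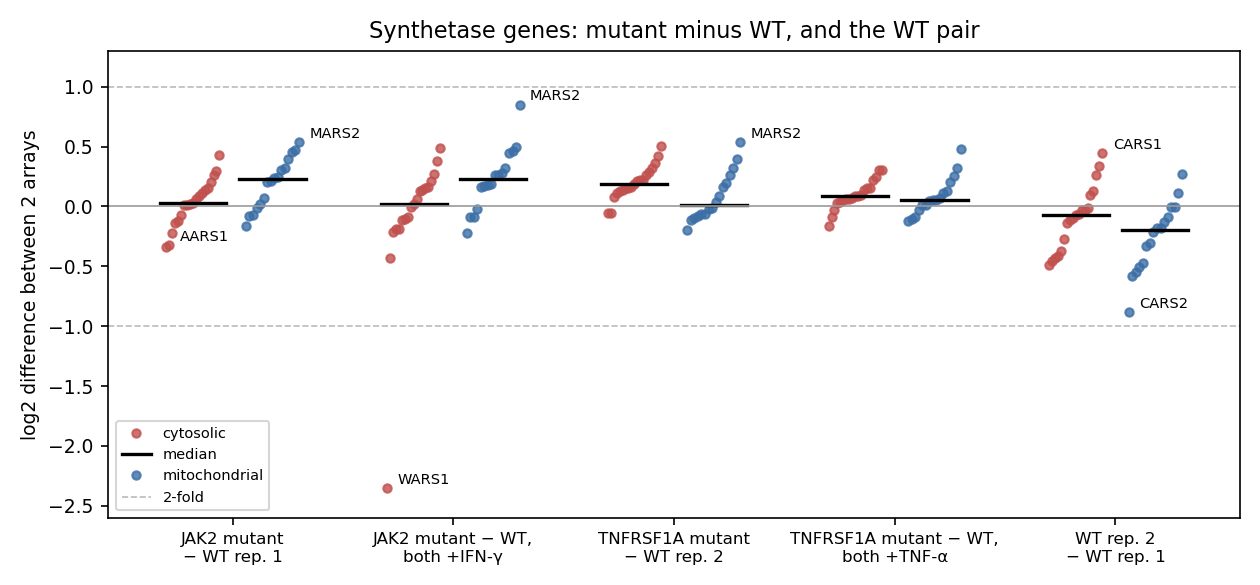
Log2 difference from WT for each synthetase gene in the JAK2 and TNFRSF1A mutants without and with cytokine, and between the WT replicates; points are genes sorted by value, black bars are class medians and dashed lines mark 2-fold. The mitochondrial median is the higher one in both JAK2 mutant comparisons (0.23 in each), and the cytosolic median is the higher one in the TNFRSF1A mutant and in the WT pair.

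The promoters of the cytosolic genes were searched for a C/EBP-ATF response element (CARE, TGATGNAA, both strands), the kind of site through which ATF4 acts on amino acid response genes. It was found for 7 of the 16 cytosolic genes with an entry and for 1 of the 14 mitochondrial ones, YARS2. These counts are of genes with the element in any of their entries, and CARS1, GARS1 and TARS1 each also have an entry without it. Of all promoter entries, counted singly, 3.62% held it, so this share is not in the same unit. The windows are shown for every synthetase with the element. Of the 9 cytosolic genes above every WT array in the TNFRSF1A mutant, 5 carry it, 2 lack it and 2 have no entry. That share is near the 7 of 16 of all cytosolic genes with an entry. Whether ATF4 has a part in these differences was not tested. Each is 30 bases of GRCh38.p14 from RefSeq, 5′ to 3′ on the strand that reads TGATGNAA, with the element in capitals.
AARS1 (chr16:70289675-70289704, plus strand): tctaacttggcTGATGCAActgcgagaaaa
CARS1 (chr11:3057407-3057436, plus strand): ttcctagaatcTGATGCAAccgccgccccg
GARS1 (chr7:30594834-30594863, minus strand): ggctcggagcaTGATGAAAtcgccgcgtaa
IARS1 (chr9:92293692-92293721, plus strand): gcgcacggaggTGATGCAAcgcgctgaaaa
MARS1 (chr12:57488053-57488082, minus strand): gaatccctcgcTGATGCAAccggaaccggc
NARS1 (chr18:57621804-57621833, minus strand): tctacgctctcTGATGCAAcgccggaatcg
TARS1 (chr5:33440956-33440985, minus strand): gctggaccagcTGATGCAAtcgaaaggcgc
YARS2 (chr12:32756076-32756105, minus strand): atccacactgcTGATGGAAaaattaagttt

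In the TNFRSF1A mutant without TNF-alpha all 7 cytosolic genes with the element were above WT, from 0.15 for NARS1 to 0.42 for MARS1, with a median of 0.29. The 8 cytosolic genes whose entries lacked it, WARS1 left out, had a median of 0.13 and 6 of 8 above 0. Of all compared genes 57.8% were above 0 there. With TNF-alpha the medians were 0.15 with the element and 0.05 without it. In the JAK2 mutant the order was the other way, with medians of 0.01 with the element and 0.13 without it in unstimulated cells, and of -0.10 and 0.11 with IFN-gamma. With TNF-alpha in WT cells, all 7 genes with the element were above 0, where 52% of the compared genes were. Their median was 0.12, against 0.00 for the 8 without it. This comparison and that of the unstimulated TNFRSF1A mutant share WT replicate 2 as control, so they are not separate observations. On that array the cytosolic genes other than WARS1 lay lowest, with a median of -0.08 from their own means over the 8 arrays. Above all 4 WT arrays in the TNFRSF1A mutant were 5 of the 7 genes with the element and 2 of the 8 without it, where 15.2% of the compared genes were. These counts rest on the brightest probe sets. The next NARS1 probe set had 11.48 in the mutant with TNF-alpha, against 11.49 in WT with TNF-alpha. For TARS1 the next one had 11.84 there, against 11.85 in WT with IFN-gamma. The further probe sets of AARS1, CARS1 and GARS1 were above all WT arrays. In the JAK2 mutant 1 of the 7 and 4 of the 8 were above all WT arrays, where 29.1% of the compared genes were, and 2 of the 7 and 1 of the 8 were below them, where 20.1% were.

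In the TNFRSF1A mutant the median of the amino acid response genes was 0.05 when TNF-alpha was given and 0.11 when it was not, with 13 and 14 of the 20 above 0, against 52.6% and 57.8% of the compared genes. On both mutant arrays 10 of 20 were above all WT arrays, where 15.2% of the compared genes were. None passed 2-fold. ATF5 was the highest without TNF-alpha at 0.78 but had -0.05 with it. SLC7A11 had 0.14 with TNF-alpha and 0.59 without it. ASNS, the asparagine synthetase, was lower than in its paired WT arrays. It had 10.80 with TNF-alpha and 10.86 without it in the mutant, against 11.43 in both WT arrays of that experiment. The IFN-gamma experiment's WT arrays, at 10.76 and 10.61 with and without IFN-gamma, were below both mutant arrays. The WT replicates differed by 0.82. The mitochondrial ribosomal proteins had a median of 0.00 in both comparisons. On both TNFRSF1A mutant arrays 21 of the 74 were below all 4 WT arrays, where 12.4% of the compared genes were, and 4 were above them, where 15.2% were.

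**Figure D5:**
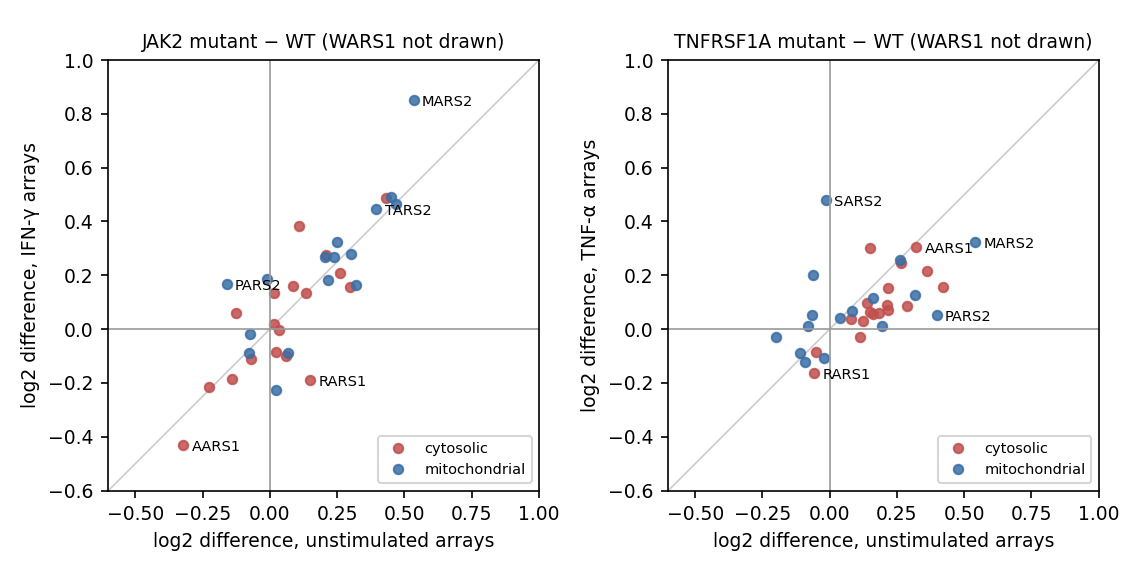
For each synthetase gene, the mutant minus WT log2 difference without cytokine (horizontal) and with cytokine (vertical), JAK2 mutant at left and TNFRSF1A mutant at right; the grey diagonal marks equal values and WARS1 is not drawn. MARS2 is far up in the JAK2 mutant (0.53 and 0.85), and AARS1 lies below 0 in the JAK2 mutant and above it in the TNFRSF1A mutant.

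The WT replicates differed in the synthetases as well. Replicate 2 minus replicate 1 had a median of -0.08 over the cytosolic genes and -0.20 over the mitochondrial genes, a gap of 0.12, and the median of all compared genes was -0.04. Of the 19 cytosolic genes 5 were above 0, and of the 16 mitochondrial genes 2 were, against 44.2% of the compared genes. None of the 35 passed 2-fold, while 0.954% of the compared genes were raised and 1.03% lowered. The 2 mitochondrial genes above 0 were WARS2 at 0.27 and HARS2 at 0.11.

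CARS2, the mitochondrial cysteinyl enzyme, showed the largest difference. It had 8.63 in WT replicate 2 against 9.51 in replicate 1, a difference of -0.89. All 4 arrays of the TNF-alpha experiment lay between 8.53 and 8.63 and all 4 of the IFN-gamma experiment between 9.39 and 9.72, so CARS2 split the arrays by experiment. PARS2 followed at -0.58, MARS2 at -0.55, LARS2 at -0.51 and MARS1 at -0.49. CARS1 was the highest at 0.44, then SARS1 at 0.34. The gene-by-gene difference between the WT replicates is thus as large as many of the differences between mutant and WT given above. The mitochondrial ribosomal proteins had a median of -0.18, with 56 of 74 below 0, as were 55.7% of the compared genes, and MRPL20 lowered, with 10.38 in replicate 2 against 11.50 in replicate 1.

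Over all 8 arrays, the most even genes were NARS1, with a range of 0.15, EPRS1 (glutamyl-prolyl enzyme) with 0.16 and LARS1 (cytosolic leucyl) with 0.18. The widest were WARS1 with 2.50, CARS2 with 1.19, MARS2 with 1.16 and AARS1 with 1.05. These ranges are of the brightest probe sets. The dimmest LARS1 probe set ran from 8.82 to 9.35 and the dimmest NARS1 one from 6.59 to 6.98. The remaining probe sets of LARS1, NARS1 and EPRS1 were more even. The 7 members of the multi-synthetase complex had medians from -0.08 between the WT replicates to 0.18 in the TNFRSF1A mutant without TNF-alpha. In that mutant comparison the median of all cytosolic genes was also 0.18. In the JAK2 mutant without IFN-gamma the complex had 0.13, against 0.03 for all cytosolic genes. With IFN-gamma these medians were closer, 0.06 for the complex and 0.02 for all cytosolic genes. The enzyme classes did not separate, with JAK2 mutant medians of 0.07 for the 19 class I genes and 0.11 for the 17 class II genes without IFN-gamma, EPRS1 counted in both.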

How the data were processed

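Biotin-labelled RNA went onto 1-colour Affymetrix arrays, per the labels' protocols. The deposited values are the authors' normalised intensity per probe set. Affymetrix Expression Console 1.1 and its RMA method produced them, according to the submitters' processing notes. The values are on a linear scale; the step back from RMA's log2 scale was inferred from the values, and log2 was taken again. RMA equalises the distributions of the arrays, so a shift of most genes would not be seen, and it compresses small differences of dim probe sets. Background and scanner values were not used here.

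Probe sets were named from the platform annotation, with symbols updated through gene identifiers to RefSeq GRCh38.p14. Among 49395 probe sets, 44994 named a single gene, 1832 named several and 2569 were not listed. The 4 probe sets that named a synthetase with another gene were not used. Each gene was read from the single-gene probe set whose mean over the 8 arrays was highest. The background range ended at the upper quartile of the array's background control probe sets, a log2 of 5.76 to 6.04. Each of the 9 comparisons is a log2 difference of 2 arrays with no p-value, which Python 3.11.15 and pandas 2.3.3 computed. Precision is limited by the number of arrays. The 2-fold rule and the limma 3.58.1 alternative were run on simulated data, and only the 2-fold counts were checked there. The simulated noise was independent between arrays and held no difference between experiments, unlike the WT pair here.

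The members, lists, thresholds and motifs were chosen with earlier results of these data known. Named were all synthetases past 2-fold and up to 6 with the largest rises and falls, with other members where a count lists them; of each other list, those past 2-fold and up to 3 with the largest differences. TUFM and XPOT were chosen with their values known. Other settings tried were 1.5-fold and 3-fold thresholds, a level filter at log2 8 or none, loess correction (span 0.3), further quantile normalisation, the mean of all probe sets, no probe sets marked _x_at, as control either the remaining WT array or the average of the WT pair, and the limma fit. GARS1 with KARS1, and WARS1, were also left out of the class medians, which was chosen after seeing the data.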

Additional observations from a re-analysis of the deposited data

Results flagged for a closer look

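AARS1 was flagged because its differences from WT had opposite signs in the mutants. It differed by -0.43 and -0.32 in the JAK2 mutant with and without IFN-gamma, and by 0.30 and 0.32 in the TNFRSF1A mutant with and without TNF-alpha. The mean of the JAK2 mutant differences minus that of the TNFRSF1A mutant was -0.69. That gap was not tested. In all, 9 synthetases had opposite signs in both pairs, and AARS1 alone was past 0.15, the standard deviation over genes with IFN-gamma in the JAK2 mutant, in all 4 differences. These are 25.7% and 2.86% of the synthetases, against 27.6% and 5.35% of the compared genes.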

How the results depend on the processing

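Only unstimulated WT had more than 1 array, so the limma fit alone uses a replicate error, that of the WT pair. No paired analysis was possible because the groups compared share fewer than 2 replicate numbers. None of the results changed sign where a 2-fold call was made. Under the alternatives, 116 values that answer a comparison moved little and 8 moved more, and of the single-gene and class values 559 moved little and 43 moved more. The WARS1 response to IFN-gamma in WT was 1.65 with the mean of all probe sets, which includes 1 in the background range, and 2.30 with WT replicate 2 as control. With that control the JAK2 mutant had 2 synthetases past 2-fold without IFN-gamma, CARS2 and MARS2, and the cytosolic minus mitochondrial median was -0.32. At 1.5-fold, 2 synthetases differed in the JAK2 mutant with IFN-gamma (WARS1 and MARS2) and 1, CARS2, between the WT replicates. In the limma fit, which has 1 residual degree of freedom, 0 synthetases passed both 2-fold and an adjusted p of 0.05 in the IFN-gamma response of WT and in the JAK2 mutant with IFN-gamma. There WARS1 had adjusted p = 0.170 for its response and 0.0709 for the mutant difference. That fit called 1 of the compared genes for IFN-gamma in WT and 19 for the unstimulated JAK2 mutant.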

Other observations

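Tryptophan handling, which shares its amino acid with WARS1, showed no gene past 2-fold with either cytokine. Of the 8 listed genes, 4 were compared. IDO1, the interferon-inducible enzyme that opens the kynurenine pathway, stayed in the background range, at 5.45 in WT cells with IFN-gamma against 4.75 in WT replicate 1, and IDO2, TDO2 and KMO were not compared either. KYNU, the kynureninase, had 4.16 and 4.12 in the JAK2 mutant with and without IFN-gamma, in the background range, against 6.76 and 6.62 in WT. It had 5.30 and 5.43 in the TNFRSF1A mutant with and without TNF-alpha, also in the background range, against 6.07 and 6.04 in WT. SLC7A5, a transporter of large neutral amino acids, had 10.00 and 10.04 in the JAK2 mutant, against 10.37 and 10.49 in WT.

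MARS1 was the synthetase whose probe sets spread most. Its 4 probe sets above background gave -0.29 to 0.60 for TNF-alpha in WT, -0.29 to 0.38 for IFN-gamma in WT and -0.24 to 0.21 for the JAK2 mutant with IFN-gamma. QARS1, with 2 probe sets above background, gave -0.03 to 0.60 between the WT replicates.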
